A study of Mus musculus with 16 samples.

Results

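The genes described here are 10 genes of amyloid precursor protein (App) processing outside the secretase panels of the study. They are the alpha-secretases of the ADAM family (Adam9, Adam10, Adam17), the gamma-secretase subunits other than the catalytic one (Ncstn, Aph1a, Aph1b, Aph1c, Psenen) and the relatives of App (Aplp1, Aplp2). They were taken by gene name from a table of 47593 genes, all 10 were present, and all 10 were among the 16553 genes that passed the filter on low counts. Counts of read pairs were measured in 16 libraries from cortex of 5xFAD mice, 4 per group, which the labels call biological replicates. The study's text also speaks of pooled samples, so whether each library holds 1 animal is not settled here. The groups were females with vehicle, females with rapamycin, males with vehicle and males with rapamycin, and the mice received a diet with microencapsulated rapamycin or with the carrier alone from 2 to 5 months of age. Every group carried the same human transgenes, among them APP with the Swedish, Florida and London mutations, heterozygous on a C57BL/6-SJL hybrid background and driven in neurons by the murine Thy-1 promoter. There was no group without the transgenes, so each comparison was made within a model that overexpresses the substrate App.

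App is a membrane protein that is cut first outside the cell and then within the membrane. Alpha-secretases, membrane-bound metalloproteases of the ADAM family, cut within the amyloid-beta sequence, so that no amyloid-beta is made, whereas the beta-secretase Bace1 makes the cut at its start. Gamma-secretase then cuts the remaining stub within the membrane. This complex holds a catalytic subunit, nicastrin (Ncstn) as the large glycosylated subunit, an Aph1 protein as scaffold and Pen-2 (Psenen), the smallest subunit, which is needed for the complex to mature. Mice have 3 Aph1 genes, and a complex holds the product of one of them. Aplp1 and Aplp2 are cut by the same classes of protease as App but lack the amyloid-beta sequence. Rapamycin inhibits the kinase complex mTORC1, which promotes growth and restrains autophagy.

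Total counts per library ranged from 16393501 to 20593089. Markers of excitatory cortical neurons were present in every library, with a summed level of 3911 to 5937 CPM (counts scaled to a common library size, here with TMM factors), and no gene of the 10 marker lists examined was at 0 in either diet group. Summed markers of other cells and regions varied between libraries. Choroid plexus markers ranged from 8.30 to 1811 CPM with vehicle and from 21.5 to 175 CPM with rapamycin, and oligodendrocyte markers had a median of 4271 CPM with vehicle and 5521 CPM with rapamycin. Hippocampus markers had a median of 150.2 CPM with vehicle and 306 CPM with rapamycin, but the genes summed differed in direction. Wfs1 had a log2 fold change of 0.91 with rapamycin over vehicle (edgeR adjusted p = 0.141). Prox1 had -0.38 (edgeR adjusted p = 0.116) and Fibcd1 had -0.34 (edgeR adjusted p = 0.538). The hippocampus list as a set was therefore not shown to be higher with rapamycin. The part of other cells and regions in the results was not tested. One library went against its label. The library labelled male rapamycin 4 had 9935 Xist counts and 0 counts of 4 genes of the Y chromosome, whereas the other 7 libraries labelled male had at most 17 Xist counts and at least 1915 of the Y genes. Values of Psenen, Adam9, Aplp2 and the Aplp1 to Aplp2 ratio, and the male range of Aplp1, are therefore also given without it. So are the counts of genes in males and for the interaction. The labels give 2 batches, with 5 libraries in batch 2 (replicate 4 of each group and female rapamycin 5) and 11 in batch 1. Libraries also differed in an exon length slope, the change in a gene's log2 CPM, relative to its mean over the libraries, for each doubling of exon length. It ranged from 0.000395 to 0.10 with vehicle and from -0.127 to 0.0640 with rapamycin. The mitochondrial share of counts was 2.64% to 5.47% with vehicle and 3.75% to 6.99% with rapamycin.

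The levels per length spanned a wide range and the App relatives stood at the top. Expressed as CPM divided by the exon length in kilobases (RPKM), the mean level over 16 libraries was 492 ± 60.4 (SD) for Aplp1 and 173 ± 14.5 for Aplp2, against 614 ± 59.1 for App itself. The ranges of Aplp1 (377 to 601 RPKM), Aplp2 (139 to 192 RPKM) and the next gene did not overlap. Psenen followed with 27.8 ± 6.11 RPKM, above Adam10 in all 16 libraries, although the ranges of these neighbours overlapped. Adam10 (17.6 ± 2.25 RPKM) was above Ncstn (15.8 ± 1.32 RPKM) in 12 of 16 libraries, so that these neighbours were not separated by the spread between libraries. Ncstn was above Adam9 (13.7 ± 1.39 RPKM) in 15 libraries, and Adam9 was above Aph1a (9.54 ± 1.16 RPKM) in all 16. Aph1a was above Aph1b (6.25 ± 0.945 RPKM) in 15 libraries, and the range of Aph1b (4.42 to 8.02 RPKM) was clear of the next gene. The lowest levels were those of Adam17 (2.37 ± 0.396 RPKM) and Aph1c (2.09 ± 0.299 RPKM), whose order held in 12 of 16 libraries. By this measure the order among the alpha-secretases was Adam10, Adam9 and Adam17, and among the Aph1 genes it was Aph1a, Aph1b and Aph1c. The summed exon length is longer than the transcript used below for Aph1a (3450 against 1601 bases) and for Ncstn (3975 against 2901 bases). With transcript lengths the order of neighbours could differ, which was not tested. The levels of Aph1a and Psenen also hold only part of their reads, as given below. The catalytic subunit Psen2, for comparison, had 4.15 ± 0.583 RPKM. The App values may hold reads of the human transgene, which were not separated here.

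**Figure D1:**
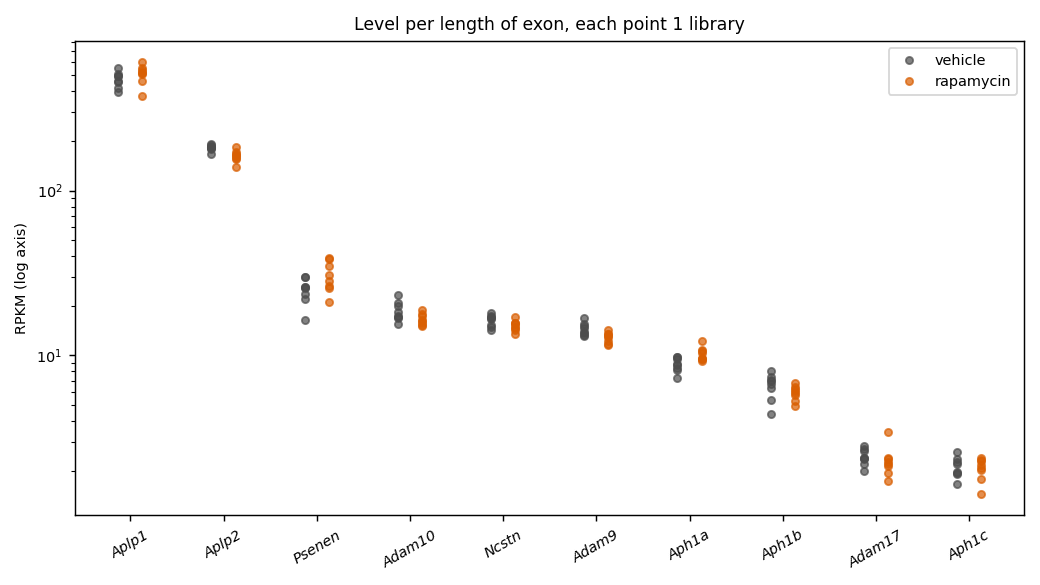
Level of each gene per length of exon (RPKM, log axis) in the 8 vehicle and the 8 rapamycin libraries, ordered by the mean, each point 1 library. Aplp1 (377 to 601 RPKM) and Aplp2 (139 to 192 RPKM) sit above the 8 secretase genes, and the points of the 2 diets lie close together beside the spread between genes.

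The main comparison asked which of these genes differed between the rapamycin and the vehicle diet. With both sexes together, 1 of the 10 genes passed an adjusted p of 0.05 in edgeR's quasi-likelihood test with sex, batch and diet as terms, and it was higher with rapamycin: Psenen. The background in this comparison was 13.3% of all genes tested (6.46% higher and 6.86% lower), so a share of 1 in 10 genes was near the background. That background was itself unsteady: 719 to 3352 genes (4.26% to 20%) were called when 1 library was left out, and 142 genes (0.858%) without a batch term. None of the 10 reached the fold change of 1.5 that, with the adjusted p, defines a differentially expressed gene here (2.26% of all genes). Without adjustment, 4 of the 10 had a p under 0.05 (Psenen and Aph1a with a positive, Adam9 and Aplp2 with a negative fold change), against 30.4% of all genes. Fold changes were positive for 3 genes and negative for 7, with a median of -0.11 on the log2 scale beside 0.02 over all genes. In bulk tissue, fewer cells of a type and less RNA per cell cannot be told apart.

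**Figure D2:**
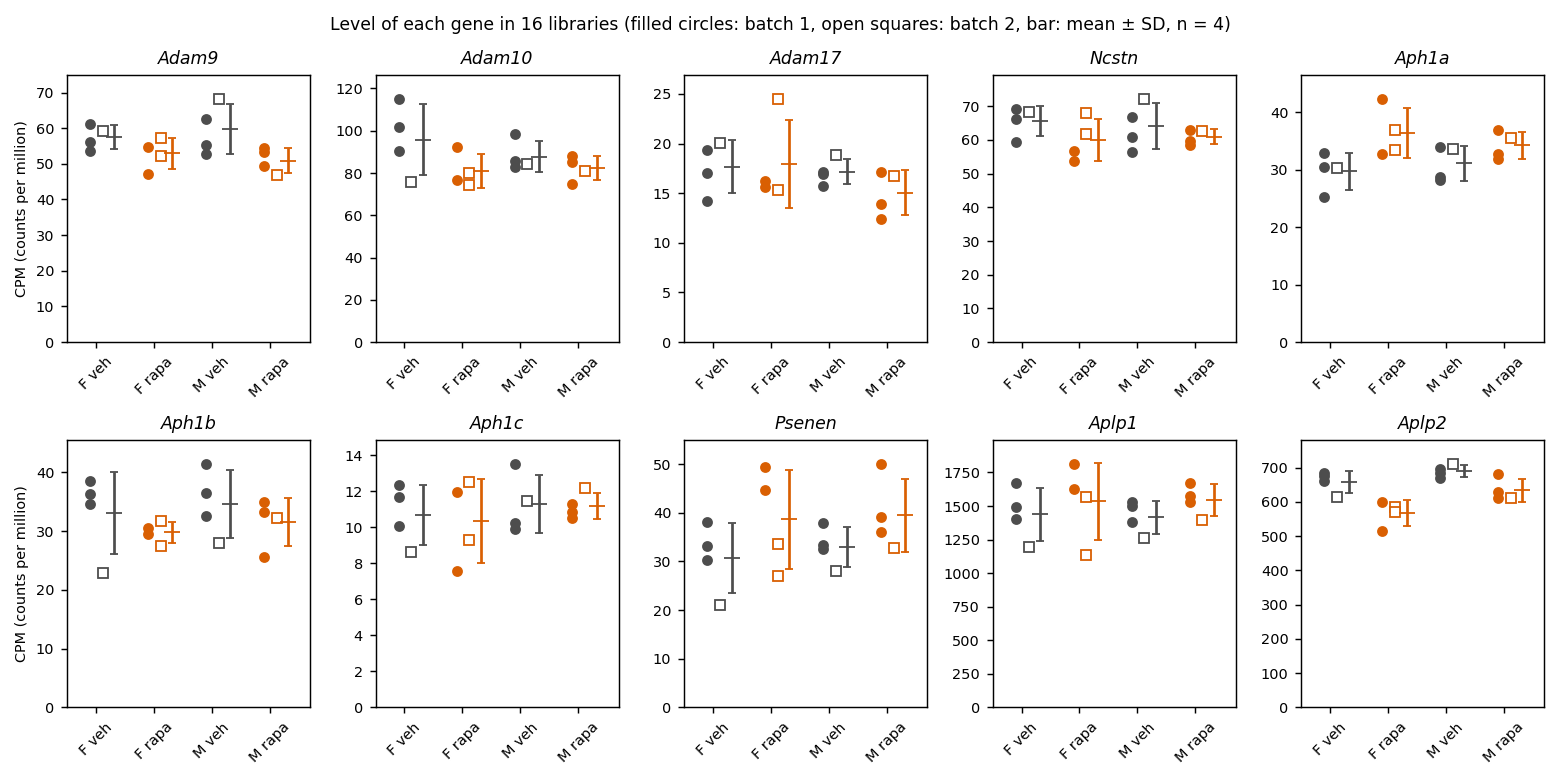
CPM of each gene by group (F veh, female vehicle; F rapa, female rapamycin; M veh, male vehicle; M rapa, male rapamycin), with axes from 0, filled circles for batch 1, open squares for batch 2 and a bar for the mean ± SD of the 4 libraries. Psenen libraries of batch 2 sit at 20.98 to 33.6 CPM, below most of batch 1, and within each batch the rapamycin points lie mostly above the vehicle points.

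Psenen encodes Pen-2 and lies at chromosome 7, 30561863 to 30563627 on the minus strand (GRCm38). The 4 female vehicle libraries had 33.2, 38.1, 30.3 and 20.98 CPM, and the 4 female rapamycin libraries had 44.6, 49.4, 26.9 and 33.6 CPM. The male vehicle libraries had 33.3, 32.6, 37.9 and 28.0 CPM, and the libraries labelled male rapamycin had 39.2, 50.0, 36.1 and 32.7 CPM. The last library of each vehicle list and of the male rapamycin list, and the last 2 of the female rapamycin list, belong to batch 2 and are low within their lists, and the diet groups overlapped in both sexes. The means were 31.8 ± 5.56 CPM (SD, n = 8) with vehicle and 39.1 ± 8.30 CPM (n = 8) with rapamycin. Psenen rose 1.28-fold, with a log2 fold change of 0.35 ± 0.09 (SE, 95% interval 0.16 to 0.54, edgeR adjusted p = 0.0218). The difference of the log2 means of CPM was 0.35 within batch 1 (6 vehicle and 5 rapamycin libraries) and also 0.35 within batch 2 (2 and 3 libraries). Without the library labelled male rapamycin 4 it was 0.35 (adjusted p = 0.0377).

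The Psenen call was not kept in every fit. It was lost without female rapamycin 1 (0.35, adjusted p = 0.0539), without female rapamycin 2 (0.32, adjusted p = 0.0552) and without male rapamycin 2 (0.32, adjusted p = 0.0536). The unadjusted edgeR p was then 0.00257, 0.00369 and 0.00353, and 719, 868 and 988 genes of the whole table were called. These libraries had an exon length slope of -0.121, -0.127 and -0.122 and a mitochondrial share of 6.88%, 6.98% and 6.99%. The call was kept without any of the other 13 libraries. Of these, the fit without female vehicle 4 had an unadjusted p of 0.00456 and an adjusted p of 0.0498. With the slope of each library as a further term the fold change of Psenen was 0.03 ± 0.10 (adjusted p = 0.986), and with the mitochondrial share as a term it was 0.20 ± 0.13 (adjusted p = 0.686). In both of these fits 0 genes of the whole table passed an adjusted p of 0.05 in edgeR, and 965 and 1318 genes had an unadjusted p under 0.05. In fits that removed each library's trend with exon length, the fold change was 0.20 ± 0.07 (adjusted p = 0.102).

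Of the 10 genes, Psenen has the shortest exons. Its summed exon length in the count table was 1275 bases, followed by Aplp1 with 3017 and Aph1a with 3450 bases, and these 3 were the genes with a positive fold change. The other 7, from 3694 bases (Aplp2) to 7154 bases (Adam17), had negative fold changes. With the slope as a term, the fold changes were 0.00 for Aph1a and -0.03 for Aplp1, and Adam17, Aph1b and Aph1c took positive values (0.06, 0.09 and 0.09). The part of exon length in the diet difference cannot be told apart from that of diet in libraries whose slopes differ with diet.

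**Figure D3:**
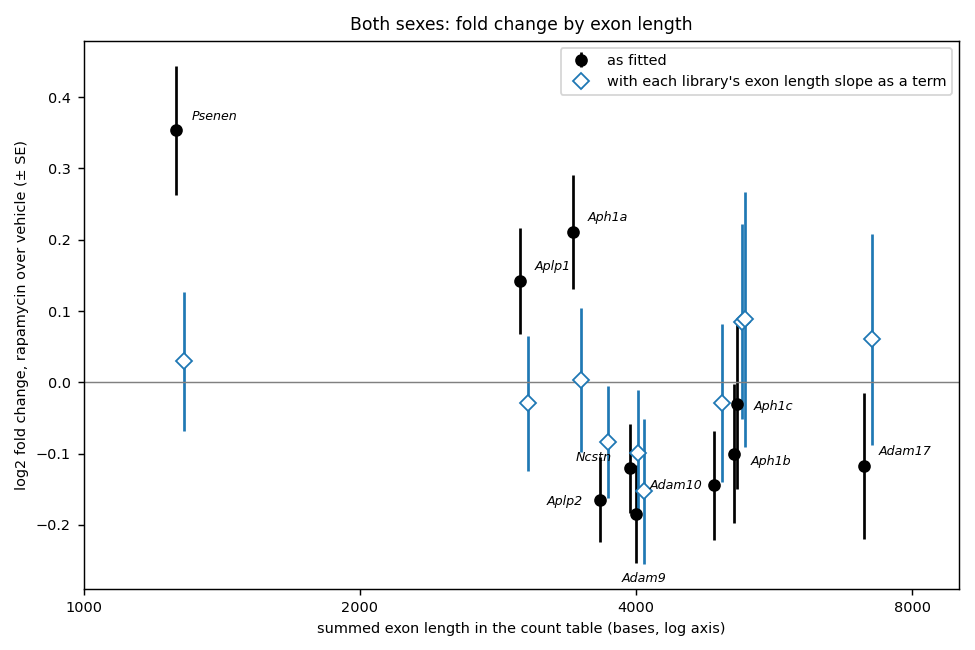
Fold change with rapamycin over vehicle in both sexes (log2, ± SE) against the summed exon length of each gene (bases, log axis), as fitted (filled circles) and with each library's exon length slope as a term (open diamonds). As fitted, the 3 shortest genes, Psenen, Aplp1 and Aph1a, lie above 0 and the 7 longer ones below it, and with the slope as a term (drawn slightly to the right) all 10 lie between -0.15 and 0.09.

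The remaining gamma-secretase subunits did not pass the test. Aph1a, on chromosome 3 from 95893969 to 95898288 on the plus strand, had 30.4, 32.9, 25.4 and 30.2 CPM in female vehicle and 32.8, 42.4, 33.5 and 37.0 CPM in female rapamycin libraries. The male vehicle libraries had 33.9, 28.8, 28.2 and 33.7 CPM and the libraries labelled male rapamycin had 31.9, 36.9, 32.8 and 35.5 CPM. Female values overlapped only between the highest vehicle and the lowest rapamycin library, and male values overlapped more. The log2 fold change was 0.21 ± 0.08 (95% interval 0.04 to 0.38, adjusted p = 0.0853), and the difference was 0.24 within batch 1 and 0.15 within batch 2. Ncstn, the subunit that meets the substrate's free end, at chromosome 1 from 172066013 to 172082795 on the minus strand, ranged from 56.5 to 72.2 CPM with vehicle (median 66.5) and from 53.8 to 67.9 CPM with rapamycin (median 60.6). Its fold change was -0.12 ± 0.06 (95% interval -0.25 to 0.01, adjusted p = 0.200), and it varied little, with a coefficient of variation of 8.38% over the 16 libraries against 21.97% for Psenen, the highest of the 10.

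Aph1b and Aph1c are neighbours on the minus strand of chromosome 9, from 66775202 to 66795490 and from 66814994 to 66834726. Aph1b had 22.8 to 41.4 CPM with vehicle (median 35.5) and 25.7 to 34.9 CPM with rapamycin (median 31.1), a fold change of -0.10 ± 0.10 (95% interval -0.31 to 0.11, adjusted p = 0.522). Its within-batch differences had opposite signs, -0.26 in batch 1 and 0.26 in batch 2. Aph1c had 8.60 to 13.5 CPM with vehicle (median 10.9) and 7.55 to 12.5 CPM with rapamycin (median 11.05), a fold change of -0.03 ± 0.12 (95% interval -0.28 to 0.22, adjusted p = 0.888), again with opposite signs in the batches (-0.12 and 0.18). The intervals of both genes allow a moderate change in either direction.

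How far these 3 genes can be counted apart depends on their sequence. The coding sequences of Aph1b (774 bases) and Aph1c (777 bases) in the GENCODE annotation matched in 745 of 774 aligned bases (96.3%), with a gap of 3 bases and an identical run of 341 bases, whereas Aph1a shared 63.9% with Aph1b and 61.7% with Aph1c. The gap-free stretch of 150 bases with the most differences, 18, runs from coding base 4 to 153 in both genes. It is shown as the part of the coding sequences where a read can best tell them apart. The transcripts outside the coding sequences were not aligned. Capitals mark the bases that differ.
Aph1b: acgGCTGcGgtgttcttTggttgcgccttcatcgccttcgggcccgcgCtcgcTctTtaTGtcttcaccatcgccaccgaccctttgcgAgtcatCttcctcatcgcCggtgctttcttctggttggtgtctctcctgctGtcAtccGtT
Aph1c: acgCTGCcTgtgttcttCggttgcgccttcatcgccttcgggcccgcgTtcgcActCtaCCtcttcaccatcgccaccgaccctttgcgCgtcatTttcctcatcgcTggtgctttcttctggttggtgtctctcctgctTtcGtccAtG
Of all 140-base windows (the read length left after trimming) of the transcript used for each gene, 5.39% of Aph1b and 5.07% of Aph1c were also found in the other gene. The share was 55.6% for Aph1a, with 659 windows also found in a copy named Gm15429 on chromosome 1 and 154 in the gene Jagn1, and 29.3% for Psenen, in the copy Gm12396 on chromosome 4. It was 3.97% for Adam17 and 2.06% for Ncstn, and 0 for the other 4 genes. Read pairs that matched several places were left out of the deposited counts, unless the other read of the pair placed them, so that the levels of Aph1a and Psenen per length hold only part of their reads. The copies Gm15429 and Gm12396 held few counts, 1 to 12 and 0 to 3 per library, whereas Jagn1 held 299 to 541 and had a fold change of 0.16 ± 0.08 (adjusted p = 0.204). Exons of Psenen share 9.33% of their bases with genes of the opposite strand, U2af1l4 among them, and exons of Aph1a share 12.9% with Car14. Counting did not use the strand and left out pairs with several genes, so pairs within these shared bases were not counted. U2af1l4, with 318 to 739 counts per library, had a fold change of 0.31 ± 0.12 (adjusted p = 0.0925), and Car14 had -0.11 ± 0.19 (adjusted p = 0.729).

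The start regions of the genes were read from RefSeq promoter windows (GRCm38.p6, 300 bases around an annotated start), which matched 9 of the 10 genes by symbol, with a second window for Psenen. Searched on both strands, CCGGAAG, the core bound by ETS-family factors, occurred in windows of 4 of the 9 genes (Adam17, Ncstn, Aph1a and Psenen) and in 8.86% of all 32851 windows. CACGTG, the E-box core bound by factors such as the lysosomal regulator Tfeb, which mTORC1 restrains, occurred in the window of 1 of the 9 genes, Adam10, and in 7.15% of all windows. The longer form TCACGTGA was in none of the 9 genes' windows and in 0.974% of all windows. The matches to CCGGAAG and to CACGTG do not overlap, and every match to TCACGTGA is also a match to CACGTG. The windows that hold a match follow, with every match to CCGGAAG or CACGTG on either strand in capitals.
Psenen, chr7:30563578-30563877, minus strand: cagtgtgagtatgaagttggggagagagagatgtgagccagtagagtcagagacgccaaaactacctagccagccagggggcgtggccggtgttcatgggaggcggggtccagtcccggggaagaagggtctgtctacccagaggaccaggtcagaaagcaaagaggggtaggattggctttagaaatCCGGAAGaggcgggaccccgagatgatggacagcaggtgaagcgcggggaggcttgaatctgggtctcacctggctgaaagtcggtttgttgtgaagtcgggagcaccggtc
Ncstn, chr1:172082700-172082999, minus strand: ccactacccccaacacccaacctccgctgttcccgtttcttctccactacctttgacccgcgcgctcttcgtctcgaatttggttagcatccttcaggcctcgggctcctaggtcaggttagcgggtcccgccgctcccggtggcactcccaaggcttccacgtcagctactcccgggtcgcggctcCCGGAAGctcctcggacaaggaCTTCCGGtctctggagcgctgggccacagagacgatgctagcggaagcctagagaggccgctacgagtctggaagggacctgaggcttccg
Aph1a, chr3:95893671-95893970, plus strand: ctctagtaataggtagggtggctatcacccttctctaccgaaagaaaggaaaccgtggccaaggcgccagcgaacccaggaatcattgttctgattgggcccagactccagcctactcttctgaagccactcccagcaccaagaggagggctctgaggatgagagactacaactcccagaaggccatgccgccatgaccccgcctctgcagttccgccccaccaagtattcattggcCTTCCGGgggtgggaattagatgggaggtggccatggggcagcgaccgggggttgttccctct
Adam17, chr12:21373583-21373882, minus strand: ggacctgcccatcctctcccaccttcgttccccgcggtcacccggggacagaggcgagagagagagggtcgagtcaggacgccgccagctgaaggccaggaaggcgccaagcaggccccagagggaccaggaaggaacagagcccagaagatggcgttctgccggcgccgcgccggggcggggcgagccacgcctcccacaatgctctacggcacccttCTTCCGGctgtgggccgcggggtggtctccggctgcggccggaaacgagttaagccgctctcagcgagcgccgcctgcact
Adam10, chr9:70678732-70679031, plus strand: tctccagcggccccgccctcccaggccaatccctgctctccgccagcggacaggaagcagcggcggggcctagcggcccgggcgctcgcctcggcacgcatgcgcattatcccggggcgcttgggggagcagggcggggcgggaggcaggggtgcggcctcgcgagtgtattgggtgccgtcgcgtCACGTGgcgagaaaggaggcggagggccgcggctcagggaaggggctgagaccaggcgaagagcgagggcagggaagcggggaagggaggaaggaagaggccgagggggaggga
Of the 4 genes with CCGGAAG, fold changes were positive for 2 (Psenen and Aph1a) and negative for 2 (Ncstn and Adam17), so the genes that hold the motif did not share a direction.

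None of the 3 alpha-secretases passed the test, and all 3 had negative fold changes. Adam10, the main constitutive alpha-secretase of neurons, lies at chromosome 9 from 70678997 to 70780229 on the plus strand. It ranged from 75.9 to 115 CPM with vehicle (median 88.1) and from 74.2 to 92.2 CPM with rapamycin (median 80.5). Its fold change was -0.14 ± 0.08 (95% interval -0.31 to 0.02, adjusted p = 0.215), and the difference was -0.19 within batch 1 and -0.03 within batch 2. Adam9, at chromosome 8 from 24949611 to 25016922 on the minus strand, can shed several membrane proteins. It had 53.5, 61.3, 56.0 and 59.3 CPM in female vehicle libraries and 47.2, 54.8, 57.4 and 52.2 CPM in female rapamycin libraries. The male vehicle values were 55.4, 62.7, 52.9 and 68.2 CPM and those labelled male rapamycin were 49.3, 53.2, 54.4 and 46.8 CPM. The highest values were in vehicle libraries and the lowest in rapamycin libraries, with overlap in each sex. The fold change of Adam9 was -0.18 ± 0.07 (95% interval -0.33 to -0.04, adjusted p = 0.0813), with -0.14 in batch 1 and -0.29 in batch 2. Without the library labelled male rapamycin 4 it was -0.15 (adjusted p = 0.140).

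Adam17, known as the protease that releases tumour necrosis factor, lies at chromosome 12 from 21323509 to 21373632 on the minus strand. It had 14.2 to 20.1 CPM with vehicle (median 17.1) and 12.4 to 24.5 CPM with rapamycin (median 15.9). The rapamycin range was set at its top by female rapamycin 4 with 24.5 CPM, while the other 7 rapamycin libraries had at most 17.2 CPM. The fold change was -0.12 ± 0.10 (95% interval -0.33 to 0.10, adjusted p = 0.468).

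The App relatives differed from each other in sign. Aplp2, which is expressed in most tissues, lies at chromosome 9 from 31149557 to 31211815 on the minus strand. The female vehicle libraries had 661, 684, 676 and 613 CPM, and the female rapamycin libraries had 514, 600.0, 586 and 572 CPM. The male vehicle libraries had 669, 695, 683 and 710.3 CPM, and the libraries labelled male rapamycin had 630.1, 612, 681 and 612 CPM. All 4 female rapamycin values lay below all 4 female vehicle values, and in males only male rapamycin 3 reached into the vehicle range. Aplp2 was the one gene of the 10 whose female diet groups did not overlap, beside 5.78% of all genes. In males no gene of the 10 was without overlap (6.13% of all genes), nor over all 16 libraries (0.489%). The male result includes the library labelled male rapamycin 4, and without it the male groups of Aplp1 did not overlap, as given below. The share of all genes without overlap was not counted without that library. Over both sexes the fold change of Aplp2 was -0.16 ± 0.06 (95% interval -0.29 to -0.04, edgeR adjusted p = 0.0730), with -0.16 within each batch. DESeq2 with the same terms gave -0.17 with an adjusted p of 0.00976, and edgeR called Aplp2 without male rapamycin 3 (-0.19, adjusted p = 0.0453), so its call depended on the tool and on 1 library. Without the library labelled male rapamycin 4 it was -0.16 (adjusted p = 0.0996).

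Aplp1, which is largely confined to the nervous system, lies at chromosome 7 from 30434982 to 30445535 on the minus strand, on the same chromosome and strand as Psenen. The female vehicle libraries had 1672, 1490, 1401 and 1197 CPM, and the female rapamycin libraries had 1812, 1623, 1137 and 1569 CPM. The male vehicle libraries had 1379, 1500, 1529 and 1260 CPM, and the libraries labelled male rapamycin had 1533, 1674, 1575 and 1394 CPM. The lowest value of each group came from batch 2, and the diet groups overlapped. The fold change was 0.14 ± 0.07 (95% interval -0.01 to 0.30, adjusted p = 0.205), with 0.14 within each batch.

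**Figure D4:**
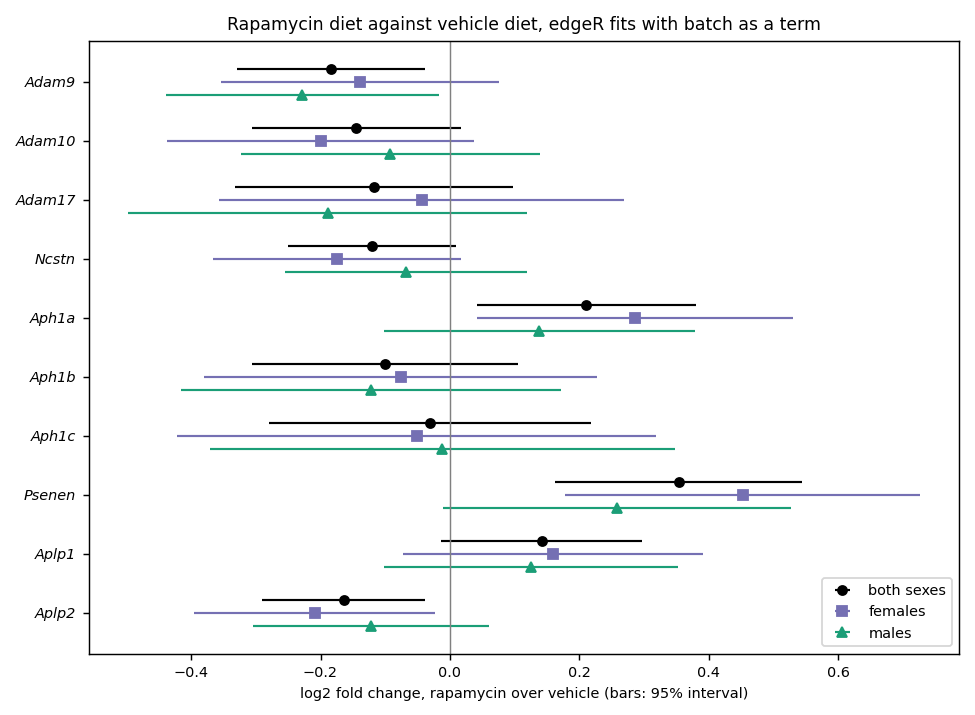
Log2 fold change of each gene with rapamycin over vehicle, with its 95% interval, in both sexes, in females and in males from edgeR fits with batch as a term. The interval of Psenen in both sexes runs from 0.16 to 0.54, and female and male intervals overlap for every gene.

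Ratios between genes do not depend on the scaling of a library and were compared with a two-sided exact permutation test that exchanged diet labels within batches (4620 assignments, 3 ratios, Benjamini-Hochberg adjustment over them). The log2 ratio of Aplp1 to Aplp2 per length averaged 1.37 ± 0.149 (SD, n = 8) with vehicle and 1.64 ± 0.254 (n = 8) with rapamycin. It was higher with rapamycin by 0.30 averaged over batches (exact p = 0.00931, adjusted p = 0.0279), by 0.30 in batch 1 and by 0.30 in batch 2. In males the ratios did not overlap, from 1.12 to 1.45 with vehicle and from 1.48 to 1.75 with rapamycin, and in females they did, from 1.26 to 1.63 and from 1.248 to 2.11. Without the library labelled male rapamycin 4 the male rapamycin ratios ran from 1.502 to 1.75. The libraries with the lowest exon length slopes, female rapamycin 1, female rapamycin 2 and male rapamycin 2, had ratios of 2.11, 1.73 and 1.745. Female rapamycin 5, with a slope of -0.0333, had 1.748. The ratio was not tested with the slope or the mitochondrial share as a term. The difference was 0.26 (exact p = 0.0106) after the trend with exon length was removed, 0.31 (exact p = 0.00469) without the library labelled male rapamycin 4, and 0.27 (exact p = 0.0622) without male vehicle 4, which leaves batch 2 with 1 vehicle library.

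Within the Aph1 genes, Aph1a made up 50.6% ± 5.19 of the summed RPKM with vehicle and 56.1% ± 3.76 with rapamycin. The difference averaged over batches was 3.14 percentage points (exact p = 0.144, adjusted p = 0.216), and the batches disagreed, with 7.91 points in batch 1 and -1.63 points in batch 2. In batch 1 alone the exact p was 0.00216. The share itself holds only part of the Aph1a reads, as 55.6% of its windows were also found in other genes. For Aph1b and Aph1c this was 5.39% and 5.07%. The ratio of Adam10 to Adam17 was 2.94 ± 0.279 with vehicle and 2.87 ± 0.342 with rapamycin on the log2 scale, a difference of 0.00 averaged over batches (exact p = 0.9855). Its sign differed between batches (-0.04 and 0.05), so no direction was found for the balance of these proteases.

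**Figure D5:**
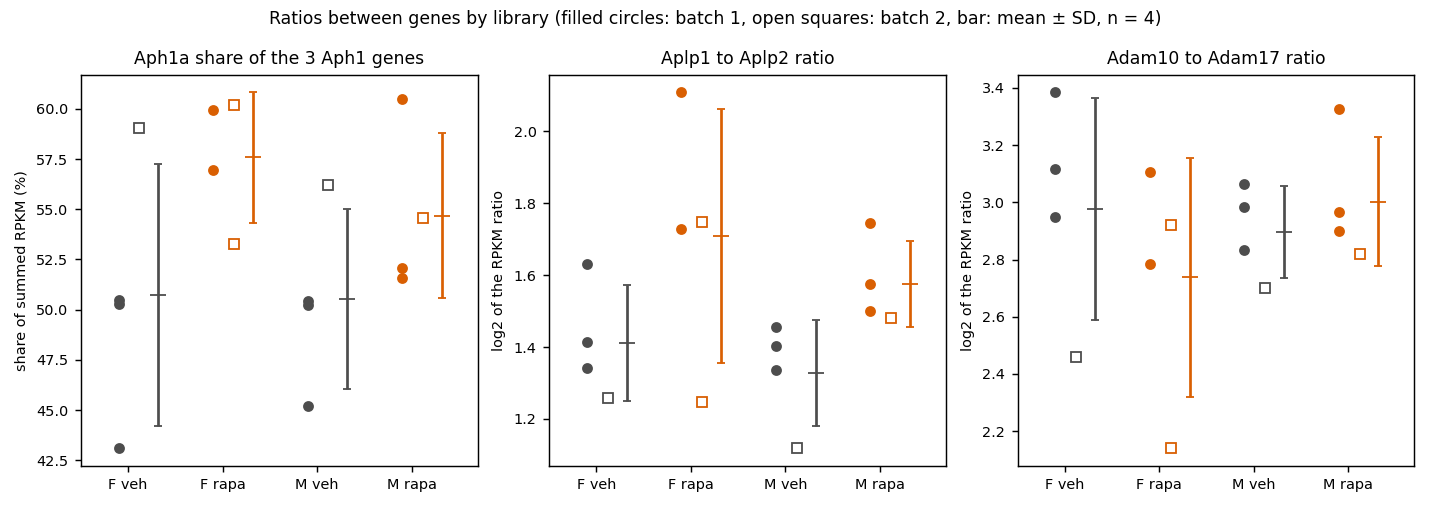
Share of Aph1a in the summed RPKM of the 3 Aph1 genes (percent) and log2 RPKM ratios of Aplp1 to Aplp2 and of Adam10 to Adam17 in each library by group (labels, symbols and bars as for the CPM plot, axes not from 0). The ratio of Aplp1 to Aplp2 averages 1.37 with vehicle and 1.64 with rapamycin, and the lowest value of each group is a library of batch 2.

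Within each sex, 0 of the 10 genes passed an adjusted p of 0.05 in edgeR. In females the background was 0.0121% of all genes, and 3 of the 10 (Psenen, Aph1a and Aplp2) had an unadjusted p under 0.05 against 23.1% of all genes. DESeq2, run without the filter on low counts, called 2 of the 10 in females, Psenen and Aplp2, beside 1495 of the 30248 genes it fitted (4.94%). Genes with low counts can be left without an adjusted p in DESeq2. The share among genes with an adjusted p was not counted and would then be higher. Without female rapamycin 4, edgeR called Psenen (adjusted p = 0.0201), where it called 12.6% of the genes tested (2104). In males the background was 0%, and 1 of the 10 (Adam9) had an unadjusted p under 0.05 against 12% of all genes. The fold change of Psenen was 0.45 ± 0.13 in females (adjusted p = 0.0754) and 0.26 ± 0.13 in males (adjusted p = 0.426). That of Aplp2 was -0.21 ± 0.09 in females (adjusted p = 0.167) and -0.12 ± 0.09 in males (adjusted p = 0.571). Without the library labelled male rapamycin 4, the male fold change was 0.21 ± 0.14 for Psenen (adjusted p = 0.732) and -0.11 ± 0.10 for Aplp2 (adjusted p = 0.784). That of Adam9 was -0.16 ± 0.10 (unadjusted p = 0.155), so 0 of the 10 genes then had an unadjusted p under 0.05 in males, against 6.84% of all genes, and 0 genes of the whole table were called. The signs were the same in both sexes for all 10 genes. An interaction term tested whether the sexes differed in response, and 0 of the 10 genes passed (background 0%, each adjusted p = 0.999), with 0 at an unadjusted p under 0.05 against 2.17% of all genes. For Psenen the female minus male difference was 0.19 (95% interval -0.19 to 0.58), so neither a like nor an unlike response was shown. Without that library it was 0.26 (95% interval -0.16 to 0.69), and 0 of the 10 genes had an unadjusted p under 0.05 for the interaction, against 3.13% of all genes. Between vehicle females and males, 0 of the 10 genes passed either (background 0.0121%, each adjusted p = 0.999), with 0 at an unadjusted p under 0.05 against 3.55%, and with fold changes from -0.13 (Psenen) to 0.12 (Adam10).

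The batches were compared in the same fit. Batch 2 was lower than batch 1 for Psenen (-0.49 ± 0.10, edgeR adjusted p = 0.00147) and Aplp1 (-0.28 ± 0.08, adjusted p = 0.0132), 2 of the 10 genes, against 35.5% of all genes (16.5% lower and 19.1% higher). Without adjustment 5 of the 10 had a p under 0.05, against 45.1%, and the batches overlapped for all 10 genes, while 7.21% of all genes did not overlap. Mean Psenen was 38.6 ± 6.72 CPM in batch 1 (n = 11) and 28.5 ± 5.08 CPM in batch 2 (n = 5). Without a batch term the diet difference of Psenen was 0.30 ± 0.14 (adjusted p = 0.243), and in batch 1 alone it was 0.36 ± 0.11 (adjusted p = 0.0519).

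Other genes of the pathway were examined in lists of partners and substrates. The 5 secretase genes of the study's panels held 0 calls. App had a fold change of -0.16 ± 0.06 (adjusted p = 0.0915), Bace1, the beta-secretase, -0.30 ± 0.10 (adjusted p = 0.0504), and Bace2 -0.17 ± 0.20 (adjusted p = 0.599). The catalytic subunit Psen2 had 0.24 ± 0.09 (adjusted p = 0.0797). Over all lists, 54 of 56 listed genes were tested, of which 2 were higher and 7 lower, with a median fold change of -0.07, beside 6.46% higher and 6.86% lower and a median of 0.02 over all genes.

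Partners and inhibitors of the ADAM proteases held 1 call among 14 genes tested, the metalloprotease inhibitor Timp4, which rose (0.48 ± 0.10, adjusted p = 0.0128). Among 7 further ADAM genes Adam19 fell (-0.52 ± 0.15, adjusted p = 0.0306). The 7 genes of gamma-secretase assembly and modulation held 0 calls, with 2 at an unadjusted p under 0.05, against 30.4% of all genes. Of 9 tested partners of App and its relatives, 1 rose, the adaptor Apba3 (0.35 ± 0.11, adjusted p = 0.0414), and 2 fell, the adaptor Apbb2 (-0.34 ± 0.09, adjusted p = 0.0218) and Appbp2 (-0.25 ± 0.08, adjusted p = 0.0416). Of 12 other substrates of alpha- or gamma-secretases, 4 fell and 0 rose, beside the 6.86% of all genes that were lower, with a median of -0.30. The 3 with the smallest p were the growth factor Nrg1 (-0.56 ± 0.11, adjusted p = 0.0119), the adhesion protein Nrcam (-0.59 ± 0.14, adjusted p = 0.0160) and the endocytic receptor Lrp1 (-0.48 ± 0.14, adjusted p = 0.0300). Erbb4, the receptor of Nrg1, was the fourth, at -0.42 ± 0.12 (adjusted p = 0.0319). These calls, as all others, were absent in the fits with the slope or the mitochondrial share as a term, and the part of either in them was not tested further.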

How the data were processed

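The authors deposited counts of read pairs per gene for 16 libraries, with no normalization, and the same counts in 1 table per group (0 differing cells). Per the submitters' notes and the file headers, reads were trimmed with Trimmomatic 0.39 (Trim Galore is also listed), aligned to GRCm38 (mm10) with HISAT2 2.2.1 and counted with featureCounts 2.0.3 without strand, leaving out pairs with several matches or several genes. These counts were analysed in R 4.3.3 with edgeR 4.0.16 (TMM factors, filterByExpr with a minimum count of 10, quasi-likelihood test) and, as an alternative, DESeq2 1.42.0. For both sexes the terms were sex, batch and diet; within a sex and for the interaction they were group and batch. Sex and batch are those of the labels. In the main edgeR fits, Benjamini-Hochberg adjustment ran over all 16553 genes tested. DESeq2 and the edgeR fit without the filter on low counts held 30248 genes. The edgeR fit of batch 1 alone tested 16644 genes, and those without 1 library tested 16727 to 16915. CPM used TMM factors and RPKM the exon length of the count table. SE and intervals come from the F statistic of each test. Labels describe 4 biological replicates per group.

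The genes named are all 10 members, the 5 genes of the study's panels (1 is counted but not reported here) and, from each further list, at most the 3 called genes of smallest p; Erbb4 was added after its value was seen. U2af1l4, Car14, Jagn1, Gm15429 and Gm12396 were named for shared sequence, and Wfs1, Prox1 and Fibcd1 as the hippocampus markers. The members and lists were chosen with earlier results of these data known. Apbb3 was not analysed here. The scripts were tested on simulated data. With a 1.25-fold change in 98 genes, edgeR recovered 10 in both sexes, 0 in females and 1 in males. For the interaction it recovered 1 of 98. At a 2-fold change it recovered 98 of 102 in both sexes, 91 in females, 90 in males and 54 for the interaction. The simulated counts held no differences by batch, sex, exon length slope or mitochondrial share, unlike these libraries. A gene that did not pass is therefore not shown to be unchanged. Coding sequences and transcript windows came from the GENCODE annotation of GRCm38, and promoters from RefSeq. Figures were drawn with matplotlib in Python.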

Additional observations from a re-analysis of the deposited data

Results flagged for a closer look

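Of 52 sets of 4 libraries (10 genes and 3 ratios in 4 groups), 1 had a library far from the other 3. Adam17 in female rapamycin 4, a library of batch 2, was at 24.5 CPM, while the other 3 female rapamycin libraries had 15.4 to 16.3 CPM, a gap of 0.903 of the whole range and above Dixon's critical value. Chance alone marks about 5% of such sets, so a single one among 52 is no more than chance gives. No gene's diet difference was found to differ between the sexes by the interaction test.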

How the results depend on the processing

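Depth limits the lowest genes most: Aph1c held 143 to 236 counts per library. Slopes and mitochondrial shares varied between libraries, and their parts in the diet differences were not tested beyond the fits given here.

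Of the 10 genes, 1 was called in both sexes, where 2205 genes of the whole table were. DESeq2 called 2 (3119 in the whole table), and 0 were called without a batch term, in batch 1 alone, with exon length offsets, with the exon length slope as a term, or with the mitochondrial share as a term (142, 1240, 951, 0 and 0 in the whole table). Leaving out 1 library at a time gave 0 to 2 (719 to 3352). In females (0 called, 2 in the whole table), DESeq2 called 2 (1495), no filter on low counts gave 1 (1678), and leaving out 1 library gave 0 to 1 (1 to 2104, the highest without female rapamycin 4). Between batches (2 called), length offsets gave 4 (6309), the slope term 0 (2083), the mitochondrial term 0 (1703), and leaving out 1 library 1 to 3 (4265 to 6211). The cause was not tested. The counts in males, in the interaction and between vehicle sexes stayed at 0 in every alternative run, while those in the whole table moved. Without the filter on low counts the whole table held 526, 87 and 144 calls (1.74%, 0.288% and 0.476%), the most of any run. With DESeq2 it held 69, 25 and 30. RLE size factors changed no count.

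Signs turned for Adam17 (0.000525 with length offsets, 0.0604 with the slope term), Aph1b (0.0852 with the slope term, 0.0293 with the mitochondrial term), Aph1c (0.0379 with length offsets, 0.0888 with the slope term, and -0.0923 to 0.0422 when 1 library was left out) and Aplp1 (-0.0294 with the slope term).

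The difference in the Aph1a share was 7.91 points in batch 1 alone (exact p = 0.00216) and 5.502 points with labels exchanged within sex (exact p = 0.0339), past the threshold in both, and 2.09 to 3.86 points when 1 library was left out. The Aplp1 to Aplp2 difference was 0.24 to 0.36 when 1 library was left out, and its p passed the threshold in 15 of these 16. The Adam10 to Adam17 difference turned to -0.0395 in batch 1 alone, to -0.0616 with the length trend removed and to -0.0668 with labels exchanged within sex, and was -0.0704 to 0.12 when 1 library was left out.

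With the replicate number as a block in place of batch, 1 of the 10 genes was called in both sexes, Psenen (0.31, edgeR adjusted p = 0.0463), and the calls over all genes went from 2205 to 1298. Same-numbered libraries of 1 sex correlated from -0.157 to 0.675 over 7 pairs, and from -0.297 to 0.280 once batch was removed, so the numbers were not taken as pairs.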
